A study of Homo sapiens with 3 samples.

Results

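S100A proteins are small calcium-binding proteins, and the 10 S100A genes S100A2, S100A4, S100A6, S100A7, S100A8, S100A9, S100A10, S100A11, S100A14 and S100A16 were taken by gene symbol from a table of 46427 genes. All 10 had read counts in both libraries compared. The libraries came from MDA-MB-468 (MM468), an epithelial line of a triple-negative breast cancer, that is, a cancer without hormone receptors or HER2 amplification. Parental MM468 cells were untreated, and MM468/PR cells were the survivors of exposure to paclitaxel, a drug that stabilizes microtubules, at 2 to 320 nmol/L. Both were labelled wild type in genotype, and MM468/PR cells carry paclitaxel as the treatment label. Whether the drug was present at harvest, and whether the resistant line is a clone or a pool, is not given in the sources used here.

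Each line had 1 library, so no difference below has a replicate check and no p-value is given. The parental library held 32704885 counts in total and the MM468/PR library 43242628. The 95% intervals given beside fold changes are exact binomial intervals of a ratio of 2 counts, cover counting error only and leave out variation between cultures. A gene was called higher or lower at a change of at least 2-fold. In bulk RNA, fewer cells expressing a gene and less RNA per cell cannot be told apart.

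S100 proteins carry a pair of EF-hand calcium-binding loops and mostly form dimers. Calcium binding opens a surface that docks onto partner proteins such as annexins and myosins inside the cell, and several members are also secreted and signal through receptors such as RAGE and TLR4. Most S100A genes lie together on the long arm of chromosome 1 beside the epidermal differentiation genes, and many are typical of squamous and glandular epithelia.

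The 10 genes fell into 2 blocks on chromosome 1 of GRCh38.p14 in the RefSeq annotation. S100A10 and S100A11 lay between positions 151982915 and 152037004, and the other 8 lay between 153357854 and 153616325. The gap between the blocks was 1321 kb and held 47 protein-coding genes, among them filaggrin and trichohyalin. S100A9 was the only one of the 10 on the plus strand. The gene model of S100A8 overlapped that of S100A7A on the opposite strand by 6064 bases, and that of S100A4 overlapped that of S100A5 by 65 bases, and whether strand was used in counting is not given in the sources used here.

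The sequence before the start of transcription differed among the genes. A TATA box (TATAAA, on the gene's own strand, 20 to 40 bases before a RefSeq start) stood before S100A4, S100A7, S100A8 and S100A9, in 4 of the 14 RefSeq promoters of the 10 genes (28.6%), and it was found in 2.30% of all 35116. The promoters of S100A6, S100A10 and S100A11 instead held 31, 32 and 22 CG dinucleotides in 300 bases, while the 4 TATA-box promoters held 2 to 8. Over all promoters the median was 14 and the quartiles were 4 and 28, so S100A11 lay between the quartiles. S100A2, S100A14 and S100A16 had neither TATAAA in that window nor a CG count above that median. S100A6 and S100A14 hold TATAAG in that same window of 20 to 40 bases before the start, which a search for TATAAA does not count. The 100 bases before the start are shown for the 4 TATA-box genes, with the box in capitals, because these genes included the largest difference in either direction, and for S100A6 as a CG-rich promoter without that box. All are RefSeq sequences of GRCh38.p14, printed 5′ to 3′ on the gene's strand.
S100A4, chr1:153545807-153545906, minus strand: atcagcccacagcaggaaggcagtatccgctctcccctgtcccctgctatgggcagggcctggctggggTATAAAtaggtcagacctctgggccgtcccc
S100A7, chr1:153460652-153460751, minus strand: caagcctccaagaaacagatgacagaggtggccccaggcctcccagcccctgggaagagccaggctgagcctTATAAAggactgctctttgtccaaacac
S100A8, chr1:153391074-153391173, minus strand: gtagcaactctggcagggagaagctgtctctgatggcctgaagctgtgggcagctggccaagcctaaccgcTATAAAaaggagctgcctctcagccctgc
S100A9, chr1:153357754-153357853, plus strand: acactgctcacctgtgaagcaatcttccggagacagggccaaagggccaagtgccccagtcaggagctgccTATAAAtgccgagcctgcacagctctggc
S100A6, chr1:153535992-153536091, minus strand: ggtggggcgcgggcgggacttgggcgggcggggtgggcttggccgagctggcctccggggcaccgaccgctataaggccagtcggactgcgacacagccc

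The box began 31 bases before the start of S100A4, 28 before that of S100A7, and 29 before those of S100A8 and S100A9. S100A8 has 3 starts among the promoters searched, and the box preceded 1 of them. The S100A8 gene model runs to position 153422583, upstream of all 3, and no promoter there was searched. Other motifs, searched on both strands of the 300-base windows, included the AP-1 motif TGANTCA, in 1 of the 14 member promoters (that of S100A2, 7.14%) against 7.71% of all promoters. The C/EBP motif TTNNGNAA was in 7 of the 14 against 36.8% of all. The GC box GGGCGG was in 5 of the 14 (35.7%) against 45.0% of all, and the AhR core GCGTG also in 5 (35.7%) against 36.5%. A match in letters is a description and not a binding site.

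S100A transcripts were abundant in parental MM468 cells and their summed level was lower in MM468/PR cells. The summed TPM, a level per transcript length in which each library adds to the same total, was 5693 in parental and 3068 in MM468/PR cells. As a share of TPM this was 0.569% and 0.307%. S100A6, whose product binds annexins and other partners, led in parental cells at 1716 TPM, rank 52 of all genes, and stood at 466 TPM, rank 243, in MM468/PR cells.

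The order of the members differed between the lines. In parental cells S100A6 was followed by S100A11 at 1410 TPM, S100A9 at 638 TPM and S100A16 at 549 TPM. S100A10 at 470 TPM, S100A14 at 437 TPM and S100A4 at 219 TPM came next, and S100A7 was lowest at 47.4 TPM. The intervals of S100A8 and S100A2, at 106 and 100 TPM, overlapped, and those of all other neighbours in the parental order did not. MM468/PR cells had S100A11 first at 750 TPM and S100A10 second at 587 TPM, followed by S100A9 and S100A6, at 473 and 466 TPM, whose intervals overlapped. S100A16 at 291 TPM, S100A8 at 239 TPM and S100A14 at 171 TPM followed, with S100A2 at 50.7 TPM and S100A7 at 30.3 TPM below them. S100A4 was lowest there at 10.5 TPM.

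**Figure D1:**
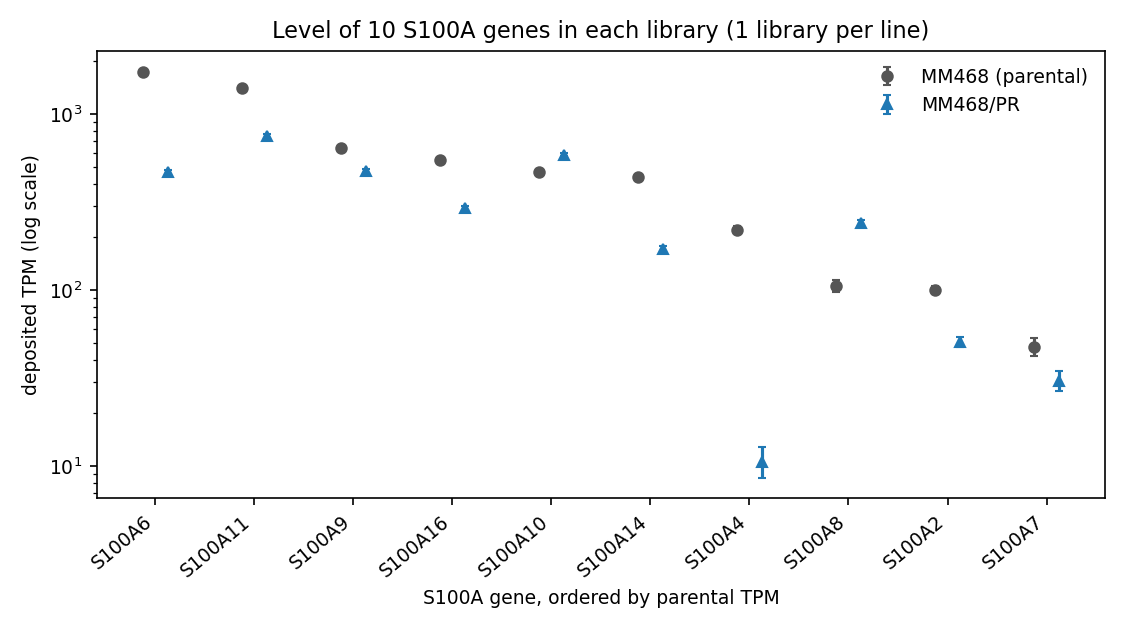
TPM of the 10 S100A genes on a log axis in the parental and MM468/PR libraries, 1 per line, with bars for the 95% interval from counting error. S100A4 lies at 219 TPM in parental and at 10.5 TPM in MM468/PR cells, while S100A8 is higher in MM468/PR cells, at 239 against 106 TPM.

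In MM468/PR cells 6 of the 10 members were at least 2-fold lower than in parental cells and 0 were higher, against 13.5% lower and 20.5% higher over the 19099 genes compared. The lower genes were S100A2, S100A4, S100A6, S100A11, S100A14 and S100A16. Their level differences spanned 2.34-fold to 25.7-fold. The median log2 fold change of the 10 members was -1.23, against 0.07 over all genes. By counting error alone, the interval lay below no change for 8 members, above it for 1 (S100A8) and across it for 1 (S100A10).

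**Figure D2:**
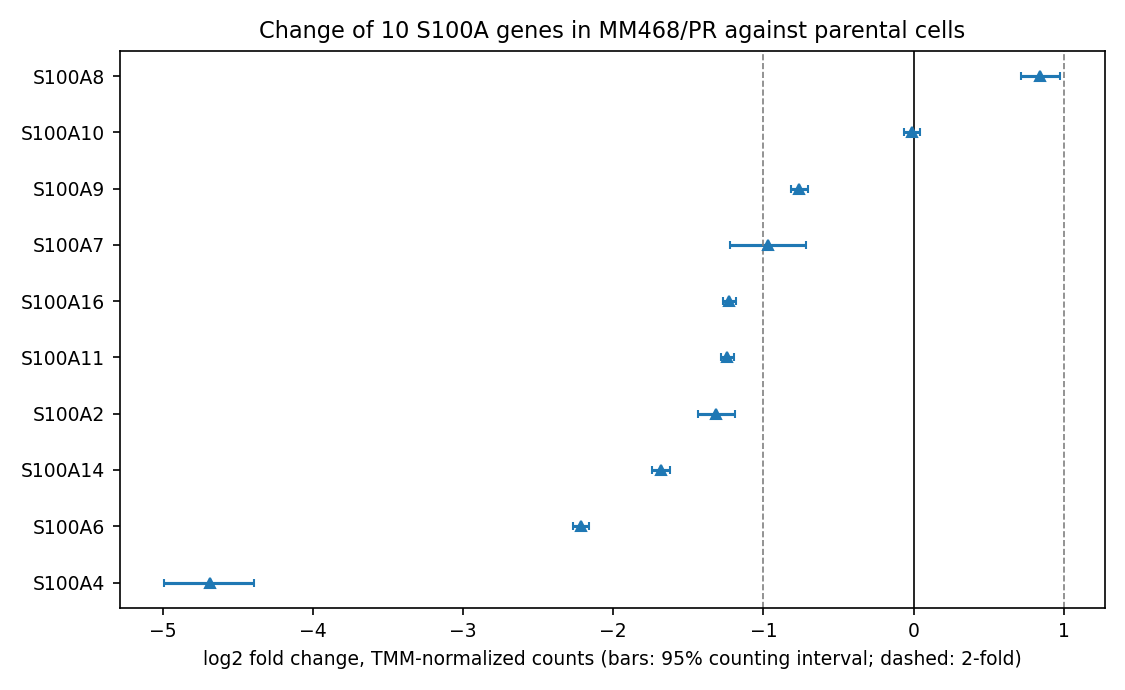
Log2 fold changes of the 10 S100A genes in MM468/PR against parental cells, 1 library per line, with bars for the 95% counting interval and dashed lines at 2-fold. S100A4 stands lowest at -4.68, and S100A8 is highest at 0.84.

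S100A4, a member linked to cell motility and metastasis that binds non-muscle myosin, differed most from parental cells. S100A4 (gene ID 6275) had 1679 counts in parental and 101 in MM468/PR cells. It ranked 657 by TPM in parental cells and 9798 in MM468/PR cells. The level was 25.7-fold lower in MM468/PR cells (interval 21.0 to 31.8). MYH9, the non-muscle myosin heavy chain that S100A4 binds, had 47052 and 32510 counts and was 2.24-fold lower (2.21 to 2.27).

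S100A6 (gene ID 6277) was the next largest difference among the members, with 11114 counts in parental and 3711 in MM468/PR cells. The level was 4.63-fold lower in MM468/PR cells (4.47 to 4.81). S100A2 (gene ID 6273), a nuclear member of epithelial cells that is a known target of p63, had 1434 and 893 counts and was 2.48-fold lower (2.28 to 2.70). TP63, which encodes p63, differed in the other direction, with 54 counts in parental and 553 in MM468/PR cells. It was 6.61-fold higher (5.00 to 8.92).

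S100A8 and S100A9 form the heterodimer calprotectin, and the pair did not change alike. S100A8 (gene ID 6279) had 650 counts in parental and 1804 in MM468/PR cells. It was 1.79-fold higher in MM468/PR cells (1.64 to 1.96), which is under the 2-fold threshold. S100A9 (gene ID 6280) had 5408 and 4935 counts, and after normalization it was 1.70-fold lower (1.63 to 1.76).

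The balance of the pair therefore differed by line. The ratio of S100A8 to S100A9 counts was 0.120 in parental (0.111 to 0.130) and 0.366 in MM468/PR cells (0.346 to 0.386), a 3.04-fold higher ratio (2.76 to 3.35). Per transcript length the ratios were 0.166 and 0.505, and S100A9 was the more abundant partner in both libraries.

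Because leukocytes also hold S100A8 and S100A9, leukocyte markers were read beside them. Of 12 leukocyte markers, 6 were at 0 in both libraries, including the myeloid genes MPO, ELANE and TYROBP. The myeloid genes ITGAM and LYZ were detected. ITGAM had 22 and 37 counts, with an interval of the ratio of 0.624 to 1.93 that includes 1, and LYZ had 2 and 8. Of the 4 compared, LST1 was called higher and CD14 lower, against 20.5% and 13.5% of all genes. The median log2 fold change of the 4 was 0.18. The summed TPM of the list was 35.4 in parental and 2.46 in MM468/PR cells, and CD14, with 755 and 15 counts, supplied most of the parental sum. Without CD14 the direction turned, with 0.953 TPM in parental and 2.00 TPM in MM468/PR cells over 11 genes. PTPRC, the pan-leukocyte gene, had 24 and 44 counts, and LST1 had 3 and 11, with an interval of the ratio of 0.626 to 13.2 that includes 1. The part of leukocyte transcripts in the S100A8 and S100A9 values was not tested. The 8 epithelial markers were all present, with KRT8 at 2032 and 2436 TPM, and their summed TPM was 8265 in parental and 7603 in MM468/PR cells. KRT7 was the 1 epithelial marker at least 2-fold lower, with a log2 fold change of -1.17, and 0 were higher. Over all genes 13.5% were lower and 20.5% higher. Of 6 fibroblast markers 3 were at 0 in both libraries. Of the 3 compared 2 were at least 2-fold higher in MM468/PR cells and 0 lower, against 20.5% and 13.5% of all genes. COL3A1 had 2 and 21 counts (interval of the ratio 1.66 to 59.7). DCN had 0 and 14 counts and was 3.02-fold higher with 3 counts put in place of the 0. The median log2 fold change of the 3 was 2.70, or 1.59 with the parental counts of COL3A1 and DCN set at 3. COL1A1 had 659 and 820 counts, a fold of 0.804 after normalization, and carried most of the summed TPM, which was 7.84 and 7.92.

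S100A7, psoriasin, is a secreted protein of inflamed and squamous epithelium. S100A7 (gene ID 6278) had 301 counts in parental and 238 in MM468/PR cells, and was 1.96-fold lower (1.65 to 2.33), just under the threshold. Its near-identical copy S100A7A had 51 and 83 counts, and reads split between the copies would make both uncertain.

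S100A10, the partner of annexin A2 in a cell-surface complex that binds plasminogen, was the member nearest to no change. S100A10 (gene ID 6281) had 4664 counts in parental and 7174 in MM468/PR cells. The fold was 0.994 (0.958 to 1.03), an interval that includes 1, but under library size, FPKM and TPM scaling the log2 value was 0.22 to 0.32. ANXA2 had 31820 and 59128 counts, with a log2 fold change of 0.26. The S100A10 to ANXA2 count ratio was 0.147 in parental and 0.121 in MM468/PR cells, and per transcript length it was 0.340 and 0.387, so the direction turned with the unit.

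The plasminogen system, which this complex serves, was read from 4 genes. PLG was at 0 in both libraries, and of the 3 compared 2 were at least 2-fold higher in MM468/PR cells and 0 lower, against 20.5% higher and 13.5% lower over all genes. PLAUR, the urokinase receptor, had 902 and 7150 counts and was 5.12-fold higher (4.78 to 5.50). PLAT, tissue plasminogen activator, had 8 and 51 counts and was 4.08-fold higher (1.94 to 10.1). PLAU, which was also compared, differed in the other direction. It had 1142 and 1295 counts and was 1.36-fold lower (1.26 to 1.48), under the threshold.

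S100A11 (gene ID 6282), which binds annexin A1, had 11732 counts in parental and 7688 in MM468/PR cells, and was 2.36-fold lower (2.29 to 2.43). S100A11 also has pseudogenes, which are listed at 0, and how reads shared with them were counted is not given in the sources used here. ANXA1 had 5480 and 15234 counts, with a log2 fold change of 0.85. The S100A11 to ANXA1 count ratio was therefore 2.14 in parental and 0.505 in MM468/PR cells.

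S100A14 and S100A16 are neighbours at the distal end of the larger block, and their products bind each other. S100A14 (gene ID 57402) had 6834 counts in parental and 3297 in MM468/PR cells and was 3.21-fold lower (3.08 to 3.34). S100A16 (gene ID 140576) had 10036 and 6638 counts and was 2.34-fold lower (2.27 to 2.41). Both were lower, S100A14 by more, and the ratio of S100A16 to S100A14 counts was 1.47 in parental and 2.01 in MM468/PR cells, 1.37-fold higher (1.30 to 1.44).

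**Figure D3:**
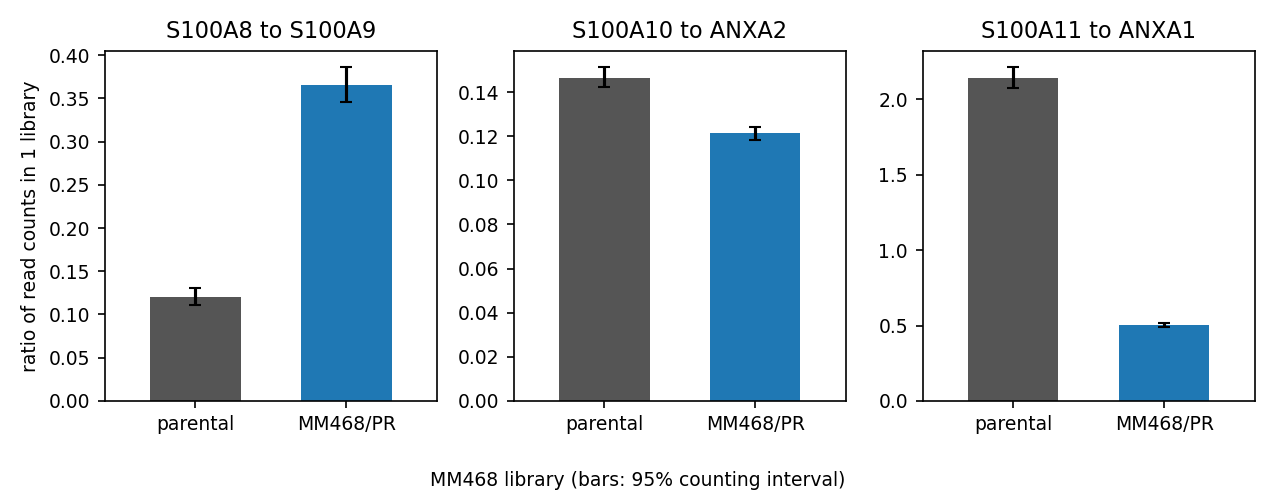
Count ratios of S100A genes to their partner genes in parental MM468 and MM468/PR cells, 1 library per line, with bars for the 95% counting interval. The S100A8 to S100A9 ratio is higher in MM468/PR cells at 0.366, and the S100A11 to ANXA1 ratio is higher in parental cells at 2.14.

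The 4 genes with TATAAA in the window before a start held both ends of the range in MM468/PR cells. Their log2 fold changes were -4.68 for S100A4, -0.97 for S100A7, -0.76 for S100A9 and 0.84 for S100A8. The other 6 lay between -2.21 and -0.01. This grouping was made after the values were seen and was not tested.

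Of the other 11 S100 genes, 4 were at 0 in both libraries and 6 were compared, with 0 higher and 3 at least 2-fold lower, against 20.5% and 13.5% of all genes, and a median log2 fold change of -0.97. S100P, which also signals through RAGE, had 630 counts in parental and 67 in MM468/PR cells and was 14.5-fold lower (11.3 to 19.0). S100A13 had 1950 and 1388 counts and was 2.17-fold lower (2.03 to 2.33). S100A1 had 11 counts in parental and 0 in MM468/PR cells and was 5.67-fold lower with 3 counts put in place of the 0.

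Genes around the S100A loci on chromosome 1 also had medians below 0. Of 19 flanking genes reported 17 were compared, and their median log2 fold change was -0.50, nearer to 0 than that of the members. C2CD4D, with 26 and 10 counts, was the 1 flanking gene at least 2-fold lower, and 0 were higher, against 13.5% and 20.5% of all genes. Of 42 epidermal differentiation genes between the blocks, 35 were at 0 in both libraries and 5 were compared, with a median of -1.50. Of these 5, 3 were at least 2-fold lower and 0 higher, against the same shares of all genes. Trichohyalin (TCHH) had 3827 and 710 counts and was 8.34-fold lower (7.70 to 9.05). Involucrin (IVL) had 350 and 191 counts and was 2.83-fold lower (2.37 to 3.40), and filaggrin (FLG) had 40 and 20. Relative to the median of the flanking genes, S100A4, S100A6 and S100A14 were at least 2-fold lower and 1 member, S100A8, was higher. The shares of all genes relative to that median were not computed, and the shares above do not apply to it.

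**Figure D4:**
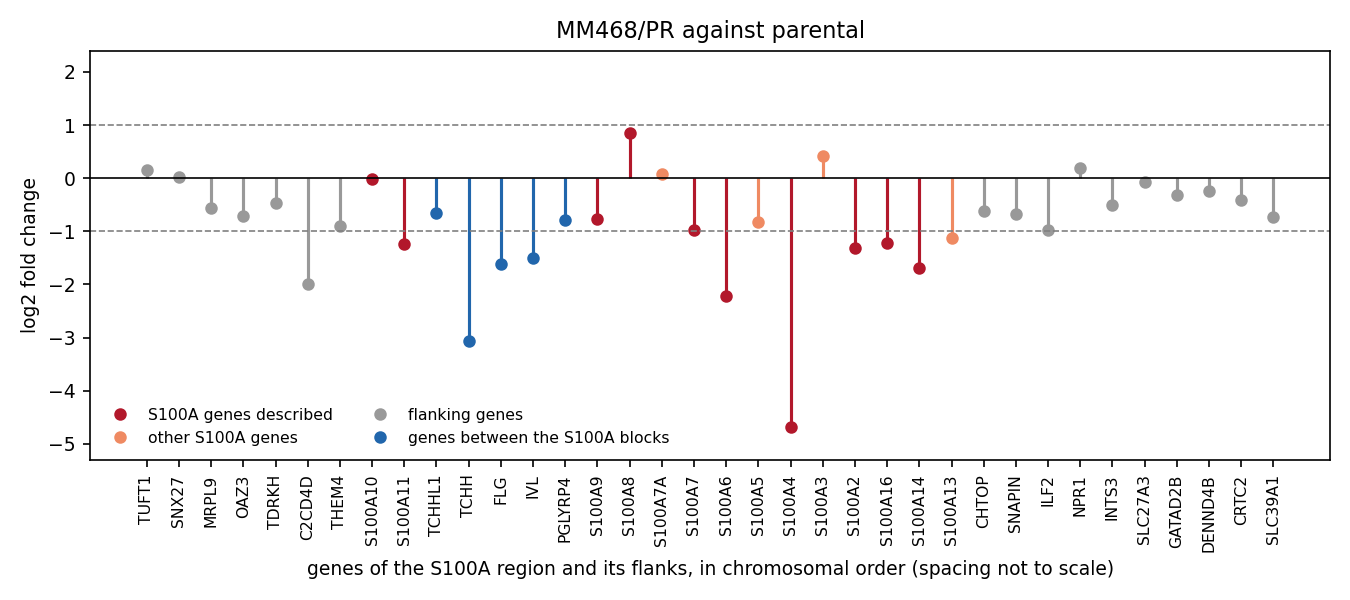
Log2 fold change in MM468/PR against parental cells of the genes in and around the S100A loci, in chromosomal order with spacing not to scale and dashed lines at 2-fold. S100A4 is at -4.68, while the flanking genes have a median of -0.50.

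Receptors for secreted S100A proteins were present at low level or not at all, apart from BSG. AGER, which encodes RAGE, had 125 counts in parental and 129 in MM468/PR cells, with a log2 fold change of -0.58. TLR4 was at 0 in both libraries, which allows up to 3 counts in each. BSG (basigin) had 11406 and 24929 counts and was 1.41-fold higher (1.38 to 1.44), under the threshold. Of the 3 receptors compared, 1 was at least 2-fold higher and 0 lower, against 20.5% and 13.5% of all genes. CD36, a scavenger receptor gene, had 0 and 75 counts and was 16.2-fold higher in MM468/PR cells with 3 counts put in place of the 0.

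Of 11 intracellular partners 10 were compared, with 3 at least 2-fold lower and 0 higher, against 13.5% and 20.5% of all genes, and a median log2 fold change of -0.19. These were MYH9 and the annexins ANXA6 and ANXA11. ANXA6 had 763 and 152 counts and was 7.76-fold lower (6.52 to 9.31). ANXA11 had 5268 and 2218 counts and was 3.68-fold lower (3.50 to 3.86). Of 7 transcription factors listed for S100A promoters, TP63 was the 1 that was at least 2-fold higher and 0 were lower, against 20.5% and 13.5% of all genes.

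Over the normalizations and units tried, S100A10 was the 1 member value that changed sign, and S100A8 passed 2-fold under some of them. The 6 members at least 2-fold lower became 5 with library size only, 4 with FPKM and 3 with TPM.

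**Figure D5:**
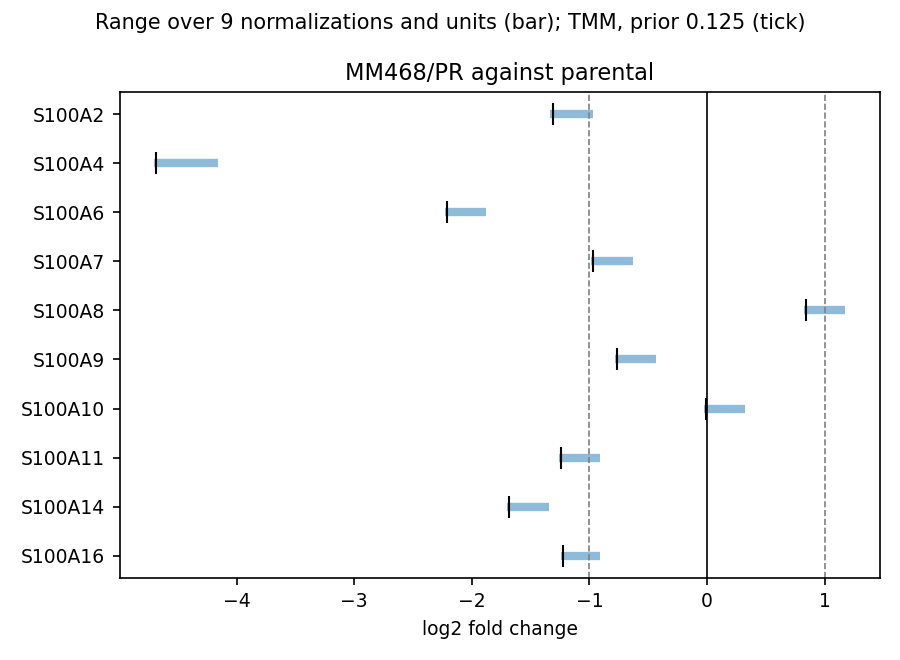
Range of the log2 fold change of each S100A gene over 9 normalizations and units (bars) and the TMM value (ticks), for MM468/PR against parental cells, with dashed lines at 2-fold. S100A4 stays between -4.70 and -4.16, and S100A8 between 0.82 and 1.17.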

How the data were processed

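Bulk RNA-seq compared 1 library of MM468/PR with 1 of parental MM468 cells, and the labels gave the line of each library. Some items of the series, among them another line and some listed genes, are not reported here. The libraries were made with a stranded mRNA kit and analysed by Macrogen Japan Corp. The submitters' processing notes name Trimmomatic 0.39, HISAT2 2.2.1 and StringTie 2.2.1 and the build GRCh38, without roles. The authors deposited raw read counts for 46427 genes, together with their own FPKM and TPM values. Depth is the total count given in the report, and lower counts give wider intervals.

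Counts were compared between the 2 libraries in R 4.3.3 with edgeR 4.0.16. Genes with 10 or more counts in 1 of these libraries were kept, TMM factors were computed on these, and log2 fold changes used a prior count of 0.125. No edgeR quasi-likelihood test was possible, since residual degrees of freedom are lacking with 1 library per line. Calls are changes of at least 2-fold. Fold changes against 0 counts put 3 counts in place of the 0. They take the other count as exact and leave out its counting error. The 95% intervals are exact binomial (Clopper-Pearson) for a ratio of 2 counts, exact Poisson for a TPM, and normal approximations on the log of the counts for a change in a ratio. Reads are not independent molecules, so the intervals cover counting error only.

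The 10 members and the gene lists were chosen with earlier results of these data known. Named beside the members are their partners and, from each list, genes with 10 or more counts in 1 library that changed at least 2-fold against parental cells, at most 8 per list, with some values of other list members. Positions and promoters are from RefSeq GRCh38.p14. Other settings tried were library size only, TMM over all libraries of the series, size factors from DESeq2 1.42.0, a larger prior count of 2, other count minimums and thresholds, and the deposited FPKM and TPM values with a pseudocount of 1 or 0.1, on the log2(value + pseudocount) scale. The scripts were tested on simulated data.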

Additional observations from a re-analysis of the deposited data

How the results depend on the processing

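No paired analysis was possible because each line had 1 library. No library could be left out for the same reason, and no difference was tested, so the values describe these libraries. At a 4-fold threshold MM468/PR cells had 0 members higher and 2 lower, and at a 1.5-fold threshold 1 and 8. The shares of all genes at these thresholds were not computed. With library size only 1 member (S100A8) was higher and 5 were lower, without S100A16, against 4738 and 1919 of the 19099 genes compared. With the deposited FPKM and either pseudocount these member counts were 1 and 4, also without S100A11. Over all genes they were 1374 and 882 with a pseudocount of 1, and 3859 and 1586 with 0.1. With the deposited TPM and either pseudocount the member counts were 1 and 3, also without S100A2. Over all genes they were 2607 and 1055 with a pseudocount of 1, and 4867 and 1580 with 0.1. Relative to the flanking median, an alternative chosen after seeing the data, the member counts were 1 and 3, and the shares of all genes were not computed. DESeq2 size factors, TMM over all libraries, no count minimum, a minimum of 100 counts and a larger prior count of 2 gave 0 higher and the same 6 lower genes.

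The scale mattered. The median of all genes shifted by 0.23 with library size only and by 0.32 with TPM and a pseudocount of 0.1. Of the genes called, 60.2% were higher with TMM, 71.2% with library size only and 75.5% with that TPM setting. The members' median stood 1.30 below that of all genes with TMM and with library size only. Of 80 member fold changes recomputed, 5 had the opposite sign, all of S100A10 (0.22 to 0.32). Depth limits S100A4 most, at 101 counts in MM468/PR cells.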
